A study of Mus musculus with 59 samples.

Results

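The BCL6 peaks of fed livers with a floxed Bcl6 gene that lay away from every peak called in C57 livers were 2026 of the 17454 peaks in the floxed list, or 11.6% (95% Wilson interval 11.1 to 12.1%). They were selected on position alone: a floxed peak was a member when no peak centre lay within 200 bp of its own centre in any of the 6 C57 lists, which hold BCL6, PPARα and PPARδ peaks of fed and of fasted livers. The other 15428 floxed peaks had such a centre, most often of both BCL6 and a PPAR (10006 peaks). No 2 members lay within 200 bp of each other, so the 2026 peaks are as many sites.

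BCL6 is a zinc finger repressor, best known from germinal centre B cells, that binds a short palindrome-like element resembling the GAS element of the STAT factors and recruits corepressors such as BCOR, NCOR and SMRT. In the liver it represses genes of fatty acid oxidation that PPARα, a lipid-activated nuclear receptor, switches on during fasting, and it acts on sex-biased genes under growth hormone and STAT5. PPARs bind as dimers with RXR to a direct repeat called DR1, and hepatocyte enhancers also carry elements for HNF6, HNF1, C/EBP and FOXA factors.

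The study mapped BCL6, PPARα and PPARδ by ChIP-seq, the sequencing of DNA that is pulled down with an antibody, in livers of male mice. The floxed mice were Bcl6 fl/fl on a C57BL/6 background, fed ad libitum and without Cre. They carry loxP sites in an intact Bcl6 gene, serve as the controls of the hepatocyte knockout, and are called WT in the sample titles. The C57 mice had the genotype WT on the same background and were either fed ad libitum or fasted overnight. Each list combined 3 livers and gives a chromosome, a start and an end on mm10 for each peak, with no height, count or p-value. The spread between livers and the sequencing depth are therefore unknown, and genotype, cohort, depth and background library cannot be told apart as sources of a peak that is in 1 list alone. The ages of the mice are not given in the sources used here. Whether the floxed list was called over input or over the BCL6 ChIP of the knockout liver is not stated in it. PPARα in floxed livers was not analysed here. Among all floxed peaks, 145 lay nearest to 25 of 28 hepatocyte marker genes, against 2 near Kupffer cell and macrophage markers, 4 near lymphocyte markers and 13 near stellate and endothelial markers. Of the members, 9, 0, 1 and 3 lay near these groups. As shares of the floxed peaks there, these were 6.21% for hepatocyte, 0% for Kupffer cell and macrophage, 25% (4.56 to 69.9%) for lymphocyte and 23.1% (8.18 to 50.3%) for stellate and endothelial markers. Over all floxed peaks the share was 11.6%. The last 3 groups hold few peaks, and no test was made.

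Sequences of 9 members are shown, most of them for the BCL6 element, which a minority of members held. The first 5 are among those that hold the BCL6 element TTCCTAGAA without a mismatch closest to their centre, and the last 4 come from the genes with the most members. Of 13 sites read at those genes, 4 held the BCL6 element in the bases read and 8 held neither element marked here. The 4 shown were picked after seeing this, 3 with the element and 1 without. Each is 101 bases of the plus strand of the mm10 chromosomes (GRCm38.p6) around the peak centre. Capitals mark matches to the BCL6 element with at most 1 mismatch and to the GAS element TTCNNNGAA, on either strand. TTCTAGGAA is the BCL6 element read on the other strand.
Ppa1: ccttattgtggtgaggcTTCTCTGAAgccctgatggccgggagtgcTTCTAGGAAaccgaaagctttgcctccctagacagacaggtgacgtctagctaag
Pemt: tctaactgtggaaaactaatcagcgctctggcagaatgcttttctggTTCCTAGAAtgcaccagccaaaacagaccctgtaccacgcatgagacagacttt
Fndc3b: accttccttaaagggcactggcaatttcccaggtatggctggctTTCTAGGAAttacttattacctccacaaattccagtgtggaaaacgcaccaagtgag
Cdh26: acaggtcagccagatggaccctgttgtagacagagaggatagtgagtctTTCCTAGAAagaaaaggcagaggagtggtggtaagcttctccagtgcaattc
Chmp4c: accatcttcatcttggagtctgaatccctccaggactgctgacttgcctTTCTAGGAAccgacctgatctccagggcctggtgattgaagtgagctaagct
Alcam, 78459 bp from the TSS: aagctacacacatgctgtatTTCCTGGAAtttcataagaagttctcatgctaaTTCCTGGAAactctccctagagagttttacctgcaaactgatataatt
Alcam, 52548 bp from the TSS: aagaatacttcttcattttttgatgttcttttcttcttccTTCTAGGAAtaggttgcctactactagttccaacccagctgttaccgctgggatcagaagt
Cdh9, 115517 bp from the TSS: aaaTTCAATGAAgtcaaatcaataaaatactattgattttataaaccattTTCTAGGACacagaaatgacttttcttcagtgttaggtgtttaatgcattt
Bcor, 14751 bp from the TSS: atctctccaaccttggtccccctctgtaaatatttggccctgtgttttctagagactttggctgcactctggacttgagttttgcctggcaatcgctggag

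The Ppa1 site, in intron 1 of this inorganic pyrophosphatase gene, lies at chr10:61649151-61649251. The Pemt site, at chr11:60051159-60051259, is intergenic and 4720 bp upstream of the TSS of this phosphatidylcholine-synthesising methyltransferase gene. The Fndc3b site is at chr3:27673069-27673169 in intron 2. The Cdh26 site is intergenic, at chr2:178507470-178507570, 77005 bp from the start of this cadherin gene, and the Chmp4c site is in intron 1 of a gene for an ESCRT-III subunit, at chr3:10367277-10367377. Their nearest C57 peak centres were 680 bp (Ppa1) to 13331 bp (Cdh26) away. In all 5 the element lay within 3 bp of the peak centre. The Alcam sites are in intron 1, at chr16:52374572-52374672 and chr16:52400483-52400583. The first of these holds a pair of matches with the same letters. The Cdh9 site is in intron 7, at chr15:16844382-16844482. The Bcor site, in intron 1 at chrX:12065752-12065852, holds neither element in the 101 bases shown.

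Most members lay more than 1000 bp from any C57 peak centre. The median distance from a member to the nearest C57 centre of any factor was 5476 bp (quartiles 1267 and 19656 bp), and the range was 202 to 1040600 bp. In the other floxed peaks the median was 10 bp. Of the members, 120 (5.92%) lay between 200 and 400 bp from a C57 centre, 311 (15.4%) between 400 and 1000 bp, 831 (41.0%) between 1000 and 10000 bp, 647 (31.9%) between 10000 and 100000 bp, and 117 (5.77%) farther away. Since the rule used this distance, these values describe the members and were not tested. Just beyond the limit, 44 members lay up to 50 bp past 200 bp. Just inside it, 62 other floxed peaks lay between 150 and 200 bp, of which 2 were at exactly 200 bp.

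**Figure D1:**
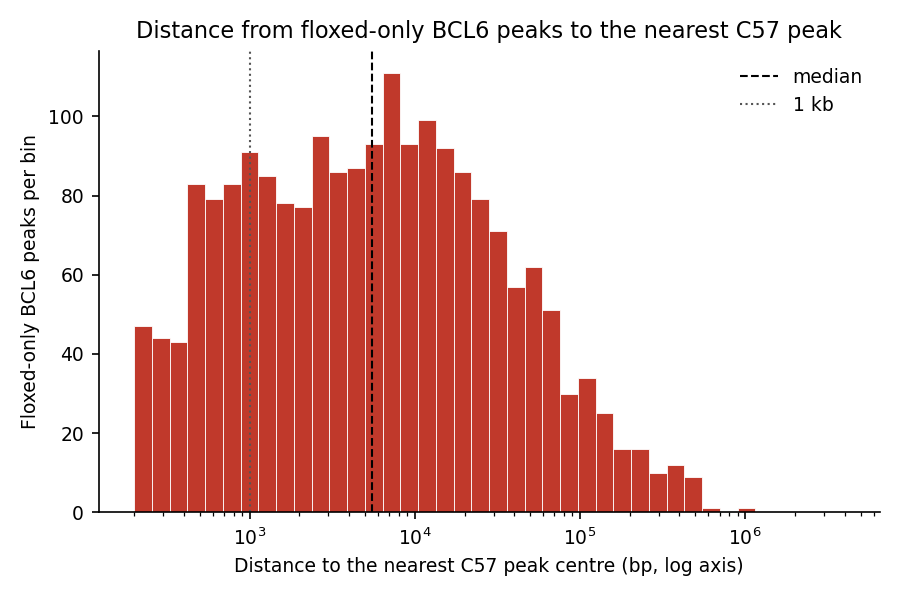
Number of floxed-only BCL6 peaks (y axis) by distance from their centre to the nearest C57 peak centre in bp (x axis, log scale), with the median of 5476 bp dashed and 1 kb dotted. The 431 members up to 1000 bp from a C57 centre are the left end of a single broad distribution.

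A count was also made in the other direction. Of the 15642 BCL6 peaks in fed C57 livers, 1604 had no centre within 200 bp in the floxed list or in the 5 other C57 lists, or 10.3% (9.79 to 10.7%). The interval lay just below that of the members. These 1604 C57 peaks serve as a comparator below, but they are not an exact mirror of the members. They were screened against 5 other lists from C57 livers, PPAR lists among them. Members were screened against no other list from floxed livers. What this adds to the contrasts below, including those of promoters, CpG and the X chromosome, was not tested. The members were also a minority of the floxed peaks that lacked a fed C57 BCL6 centre. There were 6594 such peaks. Of these, 955 had a BCL6 centre in fasted C57 livers, 3613 had a PPAR centre only, and the 2026 members (30.7%) had none.

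Members carried the BCL6 element more often than the floxed peaks at large, but less often than the floxed peaks with a C57 BCL6 centre and no PPAR centre. The element, with at most 1 mismatch, lay in the central 50 bp of 217 members (10.7%, 9.44 to 12.1%). It lay in 807 of the 15428 other floxed peaks, or 5.23%. The odds ratio was 2.17 (adjusted p = 2.77e-18, two-sided Fisher's exact test, Benjamini-Hochberg over 16 elements). The rule removes peaks near a PPAR centre, so the closer comparator was the 1809 floxed peaks that had a C57 BCL6 centre and no PPAR centre. Of those, 313 (17.3%) held the element, and the odds ratio of the members was 0.573 (adjusted p = 3.27e-08). The 10006 floxed peaks with both a C57 BCL6 and a PPAR centre held it in 3.95% of cases. Over all 11815 floxed peaks with a C57 BCL6 centre the share was 5.99%, below the members (odds ratio 1.88, adjusted p = 2.53e-12). The difference from the shared sites without a PPAR centre missed the threshold when no mismatch was allowed, where the odds ratio was 0.612 (adjusted p = 0.0580). In these tests each peak is 1 unit. Peaks are not replicates of a condition, and the p-values do not cover the spread between livers.

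The fed C57 BCL6 peaks found in no other list held the BCL6 element in 125 of 1604 cases (7.79%), below the members, with an odds ratio of 1.42 for the members (adjusted p = 0.0214). That call was lost in 200 bp windows (adjusted p = 0.0524) and at a sharing distance of 1000 bp (adjusted p = 0.0965). Within the members, sites up to 1000 bp from a C57 centre held the element in 46 of 431 cases (10.7%) and sites farther away in 171 of 1595 (10.7%), a split by the distance the rule used that was not tested. Background matches were fewer. The element was found in 1.83% and 1.73% of windows of the same length 1000 bp to either side of the members, in 0.987% of the members when its letters were read backwards, and in 1.24% of 32851 RefSeq promoters taken as 50 bp around the start site.

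Matches were centred on the peaks. In members the share of peaks with a BCL6 element rose from 0.888% in the 20 bp bin that starts 200 bp before the centre to 5.77% (4.84 to 6.88%) in the 20 bp after the centre. The shared BCL6 sites without a PPAR centre reached 9.23% in that bin, the peaks found in fed C57 livers alone reached 3.87%, and the other floxed peaks 2.47%.

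**Figure D2:**
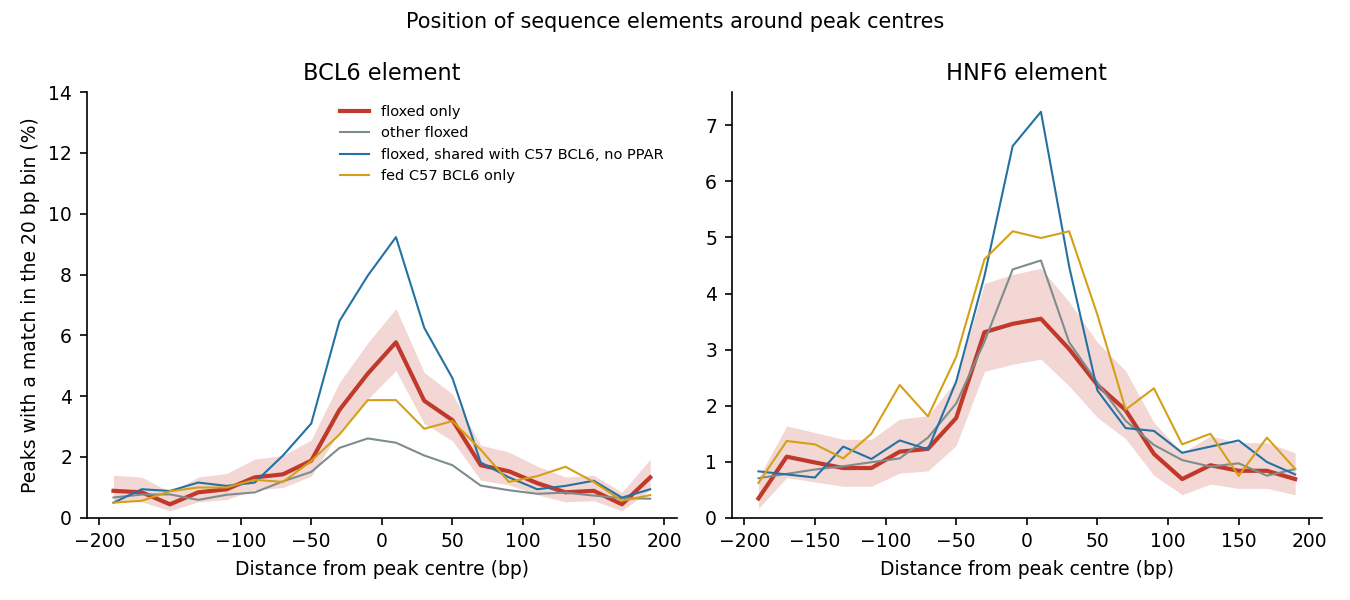
Share of peaks (y axis, %) with the BCL6 element (left) or the HNF6 element (right) in 20 bp bins by distance from the peak centre in bp (x axis), for members (red, band: 95% interval) and 3 comparators. In the bin after the centre the BCL6 element reached 5.77% of members and 9.23% of shared BCL6 sites without a PPAR centre, and the HNF6 element 3.55% and 7.24%.

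The letters of the matches were compared with those in the shared sites without a PPAR centre. The full element TTCCTAGAA made up 48 of the members' 217 matches (22.1%) and 69 of the 313 in the shared sites (22.0%). TTCCTGGAA, which like the full element also fits the GAS element, made up 46 matches in members (21.2%) and 65 in the shared sites (20.8%). TTCCTAGAG followed with 23 matches (10.6%) and 26 (8.31%). No test was made of these shares.

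The GAS element, the palindrome that STAT factors bind, overlaps the BCL6 element in its letters and moved with it. It was found in 163 members (8.05%), in 4.42% of the other floxed peaks (odds ratio 1.89, adjusted p = 2.18e-10) and in 13.2% of the shared BCL6 sites without a PPAR centre (odds ratio 0.578, adjusted p = 1.42e-06). Both elements were present in 129 members (6.37%), and 251 (12.4%) had at least 1 of them. Against the C57-only peaks, with 7.04%, the GAS element did not pass the test (odds ratio 1.15, adjusted p = 0.505).

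Among the elements of liver factors, those of HNF6 and HNF1 were less frequent in members than in the shared BCL6 sites without a PPAR centre. The HNF6 element ATTGAT, bound by the Onecut factor HNF6, was in 161 members (7.95%), against 259 of the 1809 shared BCL6 sites without a PPAR centre (14.3%), with an odds ratio of 0.517 (adjusted p = 4.74e-09). In windows of the same length 1000 bp to either side of the members it was in 1.92% and 2.02%. It was also lower than in the C57-only peaks, where 174 of 1604 (10.8%) had it (odds ratio 0.709, adjusted p = 0.0214), a call that was lost at a sharing distance of 1000 bp (adjusted p = 0.0622). Against all other floxed peaks, at 9.52%, its odds ratio of 0.821 just missed the threshold (adjusted p = 0.0544). By the same Fisher's exact test it passed in 200 bp windows (adjusted p = 0.0491), with repeats masked (0.0347) and at a sharing distance of 100 bp (0.0177). It did not pass at 400 bp (0.207) or at 1000 bp (0.842). The setting with 1 mismatch fewer is no stricter for this element, which allows no mismatch. Its matches and odds ratio stayed the same there, and only the adjustment over the other elements changed (0.0953). The HNF1 element, with at most 2 mismatches, was in 12 members (0.592%), below both the other floxed peaks (1.20%, adjusted p = 0.0427) and the shared BCL6 sites without a PPAR centre (1.44%, adjusted p = 0.0355). Those HNF1 calls, by the same Fisher's exact test, were lost when repeats were masked (adjusted p = 0.127 and 0.111). They were also lost at a sharing distance of 400 bp (0.0755 and 0.111), at 1000 bp (0.261 and 0.297) and with 1 mismatch fewer (0.437 and 0.803). Both held in 200 bp windows and at 100 bp.

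The element of C/EBP factors, TTGCGCAA with at most 1 mismatch, was in 46 members (2.27%) and in 3.93% of the other floxed peaks (odds ratio 0.568, adjusted p = 5.67e-04), but its difference from the shared BCL6 sites without a PPAR centre, at 3.10%, did not pass the test (odds ratio 0.727, adjusted p = 0.263). The C/EBP call against the other floxed peaks was lost at a sharing distance of 1000 bp (odds ratio 0.676, adjusted p = 0.0603), and without mismatch the odds ratio was 1.14 (adjusted p = 0.846). The DR1 of the PPARs, with at most 2 mismatches, was in 36 members (1.78%) and 3.16% of the other floxed peaks (odds ratio 0.555, adjusted p = 0.00154). That lower share is tied to the rule, which removes peaks near PPAR centres. Against the shared BCL6 sites that also lack a PPAR centre (1.66%) the odds ratio was 1.07 (adjusted p = 0.920). The FOXA element TGTTTAC was in 3.36% of members, 3.23% of the other floxed peaks and 3.32% of those shared sites. At least 1 element of 6 liver factor types was in 315 members (15.5%), and 27 (1.33%) combined one with a BCL6 or GAS element. In the same 50 bp of all RefSeq promoters the GAS element was found in 1.29%, the HNF6 element in 0.874%, the C/EBP element in 0.886%, the FOXA element in 0.545% and DR1 in 0.502%. None of the 16 elements was found in the central 50 bp of 1413 members (69.7%).

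**Figure D3:**
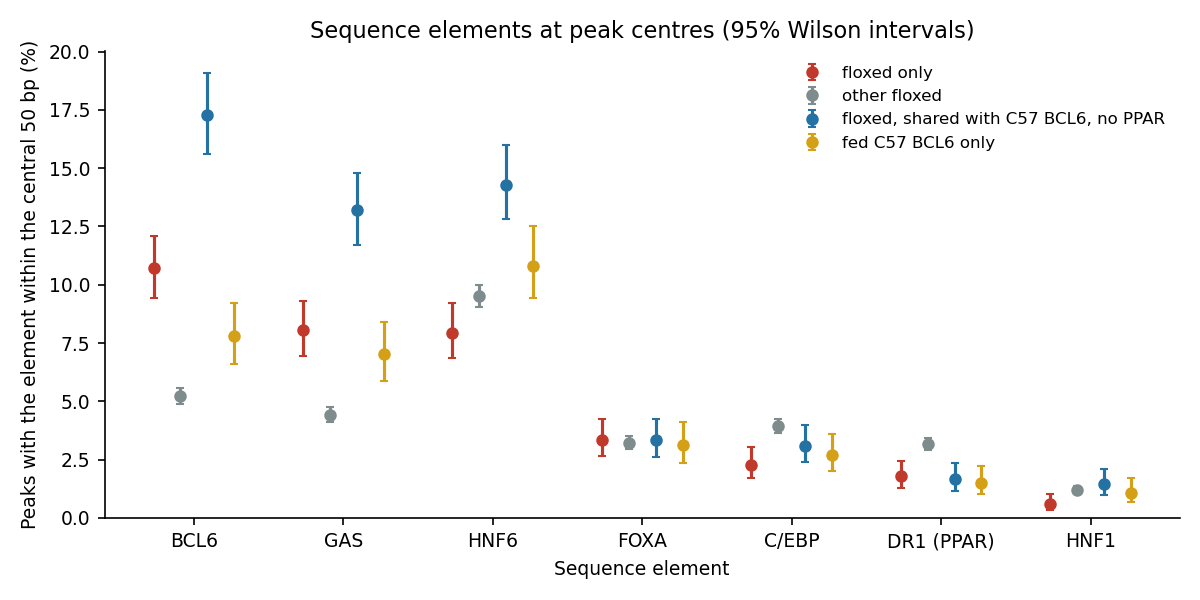
Share of peaks (y axis, %, with 95% Wilson intervals) that held each of 7 sequence elements (x axis) in the central 50 bp, for members (red), other floxed peaks (grey), floxed peaks shared with C57 BCL6 and without a PPAR centre (blue) and fed C57 BCL6 peaks found in no other list (yellow). The members' BCL6 element share of 10.7% lies between 5.23% and 17.3%, and their HNF6 share of 7.95% lies below 14.3%.

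The remaining 9 elements were those of HNF4 (CAAAGTCCA, whose letters overlap DR1), CTCF, ETS factors (CCGGAAGT), PU.1 (GAGGAAGT) and AP-1 (TGANTCA), the CRE (TGACGTCA), the E-box (CACGTG), the GC box (GGGGCGGGG) and the CCAAT box (CCAATNAG), all without mismatch. None passed the test against the other floxed peaks or the shared BCL6 sites without a PPAR centre. Against all floxed peaks with a C57 BCL6 centre, the GC box (5 members and 4 peaks, adjusted p = 0.0115) and the CTCF element (3 members and 2 peaks, adjusted p = 0.0497) passed on few matches. The CTCF element, for the insulator protein, was in 3 members and in 3 of the other floxed peaks (adjusted p = 0.0544). Against the C57-only peaks the E-box, the site of CLOCK, BMAL1, MYC and USF proteins, was more frequent in members (24 members, 1.18%, against 5 peaks, 0.312%, adjusted p = 0.0214), a call that was lost at a sharing distance of 1000 bp (adjusted p = 0.249).

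Members lay in promoters and in CpG-rich sequence more often than the floxed peaks as a whole. A promoter, taken as 1000 bp upstream to 100 bp downstream of a RefSeq TSS, held 215 members (10.6%, 9.34 to 12.0%) and 6.86% of the other floxed peaks (odds ratio 1.61, adjusted p = 2.02e-08, Fisher's exact test over 3 classes). Intergenic members were fewer, at 750 (37.0%) against 41.5% (odds ratio 0.829, adjusted p = 1.81e-04). The 1061 intragenic members made up 52.4%, against 51.7% (adjusted p = 0.555). The promoter share was also above that of the shared BCL6 sites without a PPAR centre, at 5.42% (odds ratio 2.07, adjusted p = 1.13e-08), and of the C57-only peaks, at 3.18% (odds ratio 3.62, adjusted p = 2.64e-18).

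Sequence with 8 or more CpG dinucleotides in the central 200 bp, a usual mark of housekeeping and developmental promoters, was found at 265 members (13.1%). The other floxed peaks had 5.52% (odds ratio 2.58, p = 3.55e-32, Fisher's exact test), the shared BCL6 sites without a PPAR centre 3.43% (odds ratio 4.24, p = 1.77e-28), and the C57-only peaks 0.686% (odds ratio 21.8, p = 1.16e-55). The median GC content was 48% in members, 46.5% in the other floxed peaks, 43% in those shared sites and 42% in the C57-only peaks. Because the C57-only peaks were also screened against other lists from C57 livers, the CpG and promoter contrasts with them are not like for like.

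High CpG content was not particular to the members. The 3613 floxed peaks that had a PPAR centre and no C57 BCL6 centre were CpG-rich in 16.4% of cases and in promoters in 13.1%, above the members (odds ratios 0.768 and 0.784, adjusted p = 0.00117 and 0.00519). The BCL6 element separated these groups the other way, at 10.7% of members and 2.74% of those PPAR-only peaks (odds ratio 4.26, adjusted p = 2.85e-33).

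The promoter excess was found among CpG-rich peaks. Of 520 floxed peaks in CpG-rich promoters, 141 were members (27.1%, 23.5 to 31.1%), while 74 of 753 in the other promoters were (9.83%, 7.90 to 12.2%), beside 11.6% of all floxed peaks. Outside promoters, 124 of 596 CpG-rich peaks were members (20.8%, 17.7 to 24.2%) and 10.8% of the others. Among peaks under 8 CpG the odds ratio for promoters against the other floxed peaks was 0.898 (adjusted p = 0.434). Among members up to 1000 bp from a C57 centre, 84 of 431 (19.5%) lay in promoters, and among those farther away 131 of 1595 (8.21%), given here without a test. With 1000 bp as the sharing distance, the promoter odds ratio against the other floxed peaks fell to 1.15 (adjusted p = 0.214), while the CpG-rich odds ratio was 2.04 (p = 7.77e-15, both by Fisher's exact test).

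**Figure D4:**
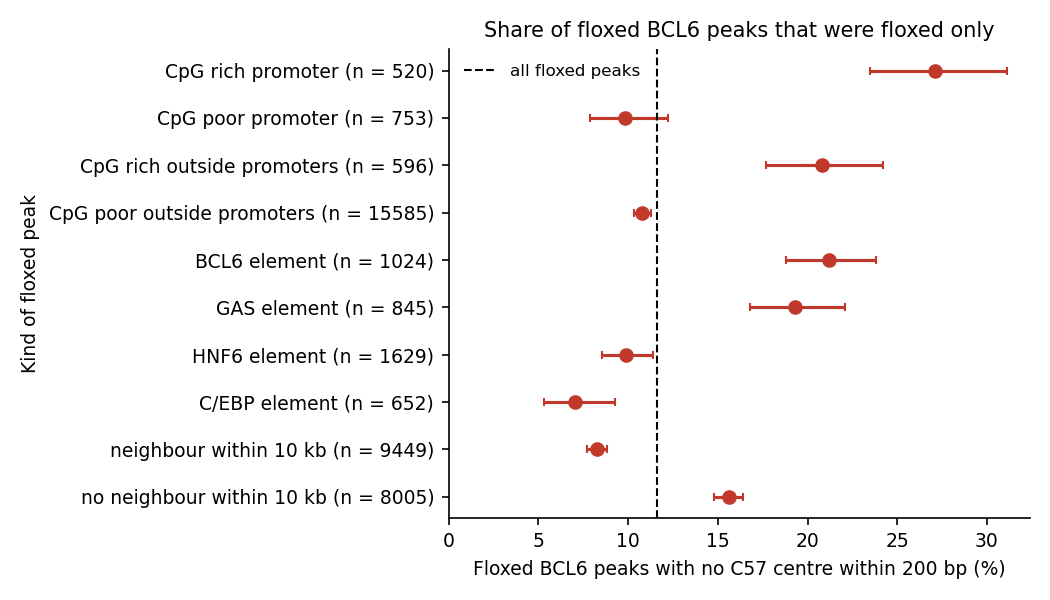
Share of floxed BCL6 peaks with no C57 centre within 200 bp (x axis, %, with 95% Wilson intervals) for kinds of floxed peak (y axis, with the number of peaks), beside the 11.6% of all floxed peaks (dashed). CpG-rich promoters (27.1%), CpG-rich sites elsewhere (20.8%) and peaks with a BCL6 element (21.2%) lie to the right of the line, and CpG-poor promoters (9.83%) do not.

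Members in promoters also differed in sequence from the other floxed promoter peaks. Of the 215, 25 (11.6%) held the BCL6 element, against 67 of 1058 (6.33%), with an odds ratio of 1.95 (adjusted p = 0.0317, Fisher's exact test over 7 features). CpG-rich sequence was at 141 of them (65.6%) against 35.8% (odds ratio 3.41, adjusted p = 9.81e-15). Most of the 1058 peaks had a PPAR centre, 475 without a C57 BCL6 centre and 485 with one. The shared BCL6 sites without a PPAR centre had 98 promoter peaks, which were not tested separately. Of the 313 such sites with the BCL6 element, 289 were among the 1711 distal ones. The element was thus more frequent at those 98 than at promoter members. The BCL6 element was about as frequent in promoter members as in the 1811 distal ones (10.6%, odds ratio 1.11, adjusted p = 0.748), whereas the HNF6 element was in 5 promoter members (2.33%) and 8.61% of distal ones (odds ratio 0.253, adjusted p = 0.00157). With promoters left out, the comparison with the shared BCL6 sites without a PPAR centre gave 10.6% against 16.9% for the BCL6 element (odds ratio 0.584, adjusted p = 1.41e-07) and 8.61% against 15.0% for the HNF6 element (odds ratio 0.536, adjusted p = 1.71e-08).

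Within 1000 bp of a TSS, 158 members lay downstream and 158 upstream, so that 50% were downstream. Among the other floxed peaks in that range 551 of 1450 (38%) were downstream (odds ratio 1.63, p = 1.08e-04, Fisher's exact test). Among the shared BCL6 sites without a PPAR centre 72 of 150 (48%) were, and the difference from the members did not pass the test (odds ratio 1.08, p = 0.693, Fisher's exact test). The median distance to a TSS was 15456 bp for members, 18339 bp for the other floxed peaks and 28232 bp for the C57-only peaks.

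Members were more isolated along the genome than other floxed peaks. Another floxed peak lay within 10 kb of 780 members (38.5%), against 56.2% of the other floxed peaks (odds ratio 0.488, p = 7.17e-51, Fisher's exact test). The shared BCL6 sites without a PPAR centre had a neighbour in 40.1% of cases, and their difference from the members did not pass the test (odds ratio 0.936, p = 0.321, Fisher's exact test). Promoter members had a neighbour at 36.3%, against 56.9% of the other floxed promoter peaks (odds ratio 0.431, p = 3.58e-08, Fisher's exact test). Most of those other promoter peaks had a PPAR centre. Promoter peaks of the shared sites without one were not compared for neighbours. Of the floxed peaks with no neighbour within 10 kb, 15.6% were members, and of those with one, 8.25%.

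The centre base of 205 members (10.1%) lay in a repeat, against 9.24% of the other floxed peaks (odds ratio 1.11, p = 0.208, Fisher's exact test). In the shared BCL6 sites without a PPAR centre the share was 11.6% (odds ratio 0.857 for the members, p = 0.145, Fisher's exact test). The C57-only peaks had 14.8%, which was not tested. When a site was called repetitive only if most of its central 200 bp was in repeats, 86 members (4.24%) were. The other floxed peaks had 3.12% (odds ratio 1.38, p = 0.00921, Fisher's exact test). By that measure those shared sites had 4.92% and the C57-only peaks 6.36%, both above the members and not tested. The authors kept uniquely placed reads only.

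The X chromosome had the largest share of members among the chromosomes with more than 2 floxed peaks. Of its 281 floxed peaks, 53 were members (18.9%, 14.7 to 23.8%), against 11.5% of the autosomal ones (11.0 to 12.0%), where single chromosomes ranged from 9.52% (chromosome 13) to 14.1% (chromosome 11). In the C57 list the share of peaks found in no other list was 10.2% on X and 10.2% on the autosomes. The X members were nearest to 44 genes, and without the peaks nearest to Bcor 47 of 251 (18.7%, 14.4 to 24.0%) were members. Both floxed peaks on the Y chromosome were members, and both fed C57 BCL6 peaks there were in no other list. Their nearest genes were Kdm5d and Uty, which encode proteins of histone demethylase families. These shares were not tested.

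**Figure D5:**
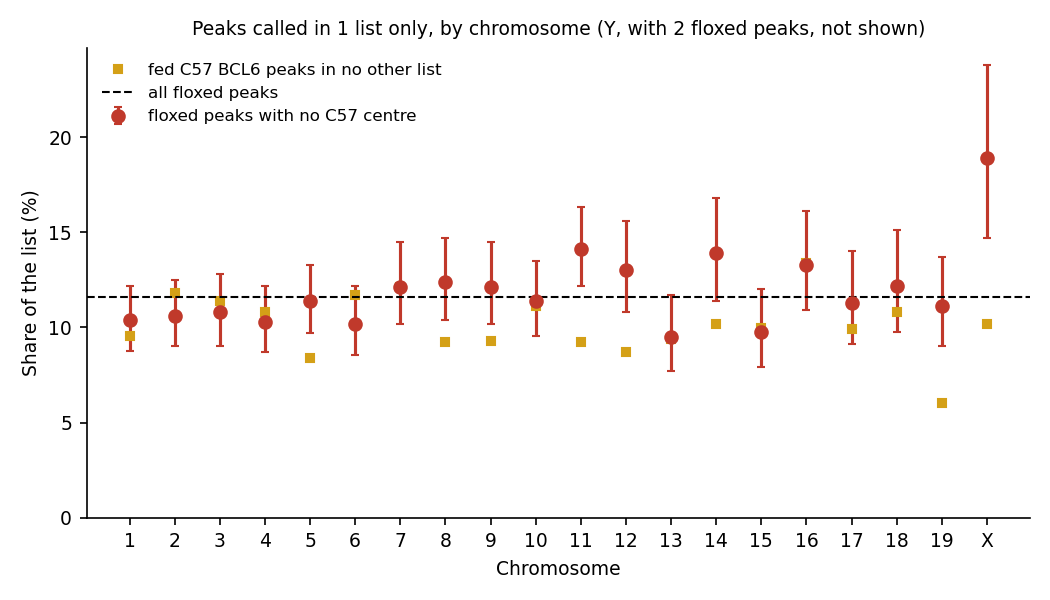
Share of floxed BCL6 peaks that were members (red, y axis in %, with 95% Wilson intervals) by chromosome (x axis), with the share of fed C57 BCL6 peaks found in no other list (yellow squares) and the 11.6% of all floxed peaks (dashed). X stands at 18.9% of floxed peaks and 10.2% of C57 peaks.

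Near the floxed gene itself the share of members was not tested, and its wide interval included the 11.6% of all floxed peaks. Within 1 Mb of Bcl6, on chromosome 16 from 23965050 to 23988866, 6 of 63 floxed peaks were members (9.52%, 4.44 to 19.3%). The gene body held 3 floxed peaks, and 0 of them were members.

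By nearest TSS of a protein-coding gene within 1 Mb, 2019 members fell to 1741 genes, of which 1511 had 1 member, 194 had 2 and 36 had 3 or more. Most of these genes also had peaks in C57 livers. A fed C57 BCL6 peak was assigned to 1159 of them (66.6%, 64.3 to 68.7%) and a peak of any C57 list to 1496 (85.9%, 84.2 to 87.5%), where 29.0% and 52.2% of all 21000 protein-coding genes had one. Those 21000 include genes with no floxed peak, and genes with other floxed peaks were not taken as a baseline.

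The gene with the most members was Bcor, which encodes the BCL6 corepressor, on X. It had 6 members among its 30 floxed peaks, and 17 fed C57 BCL6 peaks were also assigned to it. The members lay in introns 1, 2 and 9, in an exon 465 bp downstream of the TSS within a stretch of 25 CpG in 200 bp, and at 2 intergenic sites, 93028 bp upstream and 177265 bp downstream of the TSS. Their nearest C57 centres were 595 to 22207 bp away. None of the 6 held the BCL6 or the GAS element in its central 50 bp.

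The other genes among the first 10 had 4 members each. For Cdh9, a cadherin gene, all 4 floxed peaks were members and no fed C57 BCL6 peak was assigned. Of these, 3 lay in introns 2 and 7 and 1 was intergenic, 647856 bp downstream of the TSS. Alcam, for an immunoglobulin-type adhesion protein, had 4 members of 8 floxed peaks, all in introns 1 and 13 and 17440 to 41539 bp from a C57 centre, and 2 held the BCL6 element. Ptprg, for a receptor tyrosine phosphatase, had 4 of 18, in introns 1, 2 and 5, and 2 of them held the BCL6 element.

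Smyd2, a lysine methyltransferase gene, had 4 of 8, and Smarca2, for the BRM ATPase of the SWI/SNF chromatin remodeller, had 4 of 9, of which 1 was 887 bp upstream of the TSS. Hlf, a clock-controlled PAR bZIP factor gene, had 4 of 9, all intronic and 398 to 4975 bp from a C57 centre. Sgms1, for sphingomyelin synthase, had 4 of 16, including an exonic site 98 bp from the TSS with 27 CpG. Lpp, for a LIM protein of cell adhesions, had 4 of 25, with 1 in intron 1 at 746 bp from the TSS, and Irs2, the insulin receptor substrate, had 4 of 29. No member of Smyd2, Smarca2, Hlf, Sgms1, Lpp or Irs2 held the BCL6 element.

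Members were counted near genes of 13 pathway and cell type lists, with 1046 floxed peaks in all. Of these, 90 were members (8.60%), beside 11.6% over all floxed peaks. The fatty acid oxidation and ketone body genes, the best-known targets of BCL6 and PPARα in liver, had 6 members among 123 floxed peaks (4.88%, 2.25 to 10.2%). The rule removes peaks near PPAR centres, and how far this lowers the share at these genes was not tested. Of the 109 fed C57 BCL6 peaks at these genes, 2 (1.83%) were C57-only, beside 10.3% of that whole list. Bile acid and cholesterol genes had 3 members of 100 (3%, 1.03 to 8.45%). Hepatocyte marker genes had 9 of 145 (6.21%), the BCL6 targets known from lymphocytes 7 of 131 (5.34%), and growth hormone, STAT and SOCS genes 8 of 106 (7.55%). Lipogenesis genes had 11 of 101 (10.9%), sex-biased liver genes 7 of 73 (9.59%) and insulin signalling genes 16 of 168 (9.52%). The highest shares among lists with more than 20 floxed peaks were those of the circadian clock, with 13 of 83 (15.7%, 9.39 to 25.0%), and of BCL6 corepressors and deacetylases, with 13 of 97 (13.4%, 8.00 to 21.6%), of which 6 were at Bcor. Both intervals include 11.6%. These counts carry no test.

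In the oxidation list, Acadl, for the long-chain acyl-CoA dehydrogenase, had a member 141 bp upstream of its TSS in CpG-rich sequence, 603 bp from the nearest C57 centre, and it was 1 of 2 floxed peaks. Ehhadh, for the peroxisomal bifunctional enzyme, had 2 members of 9, in its intron 1 and 6555 bp upstream, the latter in an exon of the non-coding gene 1300002E11Rik. In lipogenesis, both floxed peaks of Srebf1, the SREBP1 gene, were members, in its intron 1 and 19001 bp upstream in an exon of Tom1l2, at 1155 and 886 bp from a C57 centre. Elovl6, a fatty acid elongase gene, had 2 of 14, in introns 2 and 3.

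Among clock genes, Dbp, a PAR bZIP factor, had its only floxed peak 74 bp upstream of its TSS, 2596 bp from a C57 centre. Nr1d2, which encodes REV-ERBβ, had 2 members of 3 floxed peaks, 447 bp upstream of the TSS and in intron 1. Rora, for a retinoic acid receptor-related orphan receptor, had 2 of 24, in introns 1 and 2. None of these members held the BCL6 element.

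Among insulin signalling genes, Insr, the insulin receptor gene, had 3 members of 13, 1 in an exon 24 bp from the TSS, 1 at 907 bp upstream and 1 in intron 2. Irs1 had 2 of 14, of which 1 was exonic and 501 bp from the TSS, and Foxo3, for a forkhead factor under insulin control, had 2 of 9, both in intron 2. At the Irs2 locus the members lay 2449 bp upstream and 30283, 51946 and 129707 bp downstream of the TSS.

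The liver regulators Foxa2, with 2 members of 20 floxed peaks, and Nr5a2, which encodes LRH-1, with 2 of 19, were mostly covered by shared peaks. Among repressor genes of the BTB zinc finger family to which Bcl6 belongs, Zbtb20 had 2 of 9 and Zbtb16 had 2 of 11, and 1 Zbtb20 member, in intron 4, held the BCL6 element. Cyp2a4, a female-biased steroid hydroxylase gene, had 2 of 3, at 3543 bp upstream and 8361 bp downstream of its TSS. Ccnd2, the cyclin D2 gene and a target of BCL6 in B cells, had its only floxed peak 862 bp upstream of the nearest TSS in intron 1 of the non-coding gene 9330179D12Rik. That member held the BCL6, the GAS and the HNF6 element and lay 107177 bp from the nearest C57 centre.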

How the data were processed

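Of 59 samples in the series, 21 stand behind the 7 lists used. The authors placed reads on mm10 with Bowtie, kept unique placements, called peaks with HOMER on combined replicates and filtered them with DESeq2. The deposited lists give peak positions in bp with no other values, so depth was unknown. Members and gene lists were chosen with earlier results of these data known. Sequence and annotation were RefSeq GRCm38.p6, whose chromosomes contained every peak. All 16 elements were searched on both strands in 50 bp at each centre. Wilson intervals (95%) cover counting error only. Fisher's exact tests were two-sided, adjusted by Benjamini-Hochberg within each family at 0.05. The CpG, promoter-subset, start-site, PPAR-only, C57-only annotation and all-shared comparisons, and those of neighbours and repeats with shared sites and of members split by distance, were added after seeing the data. Named genes were the 10 with most members, and listed genes with at least 2 members or a promoter member, 26 in all. Of 14 gene lists, the keratins, for comparison, had 1 floxed peak and 0 members, and 1 listed gene had no match. Python 3.11.15, SciPy 1.17.1, pandas 2.3.3 and pysam 0.24.0 were used, with checks on simulated data. Alternatives covered sharing distance, lists, promoter and search windows, repeats and mismatches. Samples without a list were not analysed here. Of 19 sequences the rule chose, 9 are printed.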

Additional observations from a re-analysis of the deposited data

How the results depend on the processing

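The share of floxed peaks called members was 12.9% at a sharing distance of 100 bp, 10.9% at 400 bp and 9.14% at 1000 bp. It was 37.8% against the fed C57 BCL6 list alone and 32.3% against both C57 BCL6 lists. The C57-only share, at distances added after seeing the data, was 11.4% at 100 bp and 8.86% at 1000 bp. The promoter odds ratio against other floxed peaks fell to 1.15 at 1000 bp. Among peaks under 8 CpG, chosen after seeing the data, it was 0.898, and 1.12 against the shared BCL6 sites without a PPAR centre.

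Against other floxed peaks, 2 elements were higher and 3 lower past the threshold. The lower count was 5 in 200 bp windows, 0 with 1 mismatch fewer and 1 at a distance of 1000 bp. Read backwards, the BCL6 element gave 1.11 and 0 elements passed in either direction, the GAS element 0.929, C/EBP 1.62 and DR1 1.26. With 1 mismatch fewer, C/EBP gave 1.14. Against the shared BCL6 sites, 0 were higher and 4 lower. In 200 bp windows 2 were higher. With 1 mismatch fewer the BCL6 element gave 0.612 and 2 were lower. Read backwards it gave 1.12 and 0 were lower. Against the C57-only peaks, with alternatives added after seeing the data, the BCL6 element gave 1.20 in 200 bp windows, where 2 elements were lower in place of 1, and 1.38 at 1000 bp, where 0 passed. With most of the central sequence in repeats, the repeat odds ratio against the other floxed peaks was 1.38. Of 226 alternatives over 49 results, 167 were counted as unchanged. The tally is not a measure of robustness. It includes settings that could not alter the matches, such as 1 mismatch fewer for the GAS and HNF6 elements, which allow none. Reading backwards, a background control, is counted in it too. A test was unchanged if it kept its side of the threshold, even where the odds ratio changed direction without passing in either setting. A share was unchanged within the main interval, and a count of elements if it stayed similar. The cause of the changes was not tested.

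No paired analysis was possible because each list is a pool of 3 livers with no values per replicate, and for the same reason no liver was left out in turn. The number of reads behind each list is unknown.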
